A study of Mus musculus with 3 samples.

Results

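ATP-binding cassette (ABC) transporters are the subject of this section: the genes whose name on the array begins with Abc, a subfamily letter from a to g and a number. The rule used only gene names and no measured value. It found 50 genes with 98 probes, out of 19712 named genes and 41174 gene probes on the array. Subfamily A held 16 of them, B 10, C 10, D 4, E 1, F 3 and G 6. All 50 names are current symbols in RefSeq's mouse gene table.

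ABC proteins bind and hydrolyse ATP, and most use that energy to move a substrate across a membrane. In the liver, a group of them in the canalicular membrane of hepatocytes exports bile salts, phospholipid, sterols and conjugates into bile, while others on the blood-facing side return conjugates to the circulation. Other members work in mitochondria, peroxisomes and lysosomes, and subfamilies E and F lack membrane-spanning domains and act on ribosomes and translation.

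RNA of C57BL/6 mice, an inbred laboratory strain, was measured in liver from adults of 12 weeks, in liver from fetuses at gestation day 13.5 and in bone marrow. The labels do not make clear whether the age of 12 weeks also covers the bone marrow, and the sex and number of animals, and whether they were pooled, are not given in any source used here. No treatment or engineered allele is named for any group. Each tissue was hybridised to 1 array, labelled in 1 colour, so the comparisons describe these 3 RNA samples and carry no test and no spread between animals.

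Signals are given as scaled signals, the background-subtracted processed signal divided by the 75th percentile over gene spots of the same array. That percentile was 296 intensity units for the adult liver array, 387 for fetal liver and 894 for bone marrow. A probe counts as detected where the scanner software flagged it well above background, and a gene counts as different where its scaled signals were at least 4-fold apart. Where 1 of the 2 tissues was not well above background, only a bound on the fold can be given, marked by the words "at least". No member probe was spotted more than once. Among the 152 to 162 probes with 7 to 10 spots on an array, the median SD was 0.052 to 0.068 on the log2 scale over the 3 arrays (at most 1.05-fold). The 95th percentile of that SD was 1.17-fold, 1.16-fold and 1.13-fold. These figures cover spot-to-spot error alone, which is well under 4-fold. Brightness also depends on the probe, so levels are compared between tissues for a gene and not between genes.

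The tissues were checked against marker genes. The 3 hepatocyte markers on the array (Alb, Apoa1, Ttr) summed to a scaled signal of 1120 in adult liver and 188 in fetal liver, and in bone marrow none of the 3 was well above background (sum 0.0199). Markers of mature hepatocytes (Cyp2e1, Cps1, Cyp3a11) summed to 275, 0.164 and 0.0549 in the same order, with Cyp2e1 and Cps1 not well above background in fetal liver or bone marrow. The 4 erythroid markers summed to 51.9, 618 and 410, of which Alas2 alone gave 51.4 in adult liver. The 4 neutrophil markers summed to 0.118, 56.2 and 891, and none of them was well above background in adult liver. The 3 platelet markers summed to 0.932, 112 and 80.9. The fetal hepatoblast markers Afp and Dlk1 summed to 0.401, 567 and 0.378. The summed B cell markers gave 0.41, 0.162 and 12.4, and those of macrophages 24.5, 6.46 and 26.1. Clec4f alone made up 13.0 of the macrophage sum in adult liver, while Adgre1, Cd68 and Csf1r were highest in bone marrow. The T and NK cell markers gave 0.711, 0.7 and 17.8, of which Nkg7 alone made up 16.8 in bone marrow. Cd3e was highest in adult liver (0.497, 0.237 and 0.343). The endothelial sum was 14.4, 9.46 and 1.63, although Pecam1 was highest in bone marrow (0.173, 0.141 and 0.247). Stellate cell and pericyte markers summed to 4.67, 3.47 and 1.69, although Pdgfrb was level in the livers (3.19 and 3.31). Bile duct markers summed to 0.698, 1.99 and 0.253, and Krt7 alone made up 1.81 in fetal liver. Krt19 was highest in adult liver (0.237, 0.168 and 0.00677), and Epcam was detected in bone marrow alone (0.0388). In whole tissues such as these, fewer cells of a type and less RNA per cell cannot be told apart.

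Each array detected 35 of the 50 genes (70.0%), though not the same 35, against 65.4% of all named genes in adult, 70.4% in fetal liver and 70.7% in bone marrow. Detection reached 39 members on at least 1 array and 30 on all 3. The other 11 were not well above background anywhere: Abca4, Abca12, Abca14, Abca15, Abca16, Abca17, Abcb1a, Abcb5, Abcc8, Abcc10 and Abcc12. They include the retinal lipid transporter Abca4, the keratinocyte lipid transporter Abca12 and the sulfonylurea receptor Abcc8 of the pancreatic beta cell. Their signals are near the lower limit of these arrays, which does not show that the RNA is absent.

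Adult liver stood apart from both other tissues for many of these genes. Between fetal and adult liver, 18 of 37 comparable members (48.6%) were at least 4-fold apart, against 26.2% of 14185 genes. Of these 13 (35.1%) were higher in adult liver, against 14.2% of all genes, and 5 (13.5%) were higher in fetal liver, against 12.0%. The median log2 difference, fetal minus adult, was -0.87 over the members and 0.05 over all genes. Between adult liver and bone marrow, 22 of 39 members (56.4%) were at least 4-fold apart, against 33.8% of 14245 genes. Adult liver was the higher tissue for 16 of them (41.0% against 18.8% of all genes) and bone marrow for 6 (15.4% against 15.0%). The median log2 difference, adult liver minus bone marrow, was 1.01 over the members and 0.09 over all genes.

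Fetal liver and bone marrow lay closer together. There 6 of 38 members (15.8%) were at least 4-fold apart, against 17.6% of 14680 genes, with 5 higher in fetal liver (13.2% against 9.29%) and 1 in bone marrow (2.63% against 8.32%). The 3 comparisons share arrays, so their counts are not independent of one another. The 5 higher in fetal liver were Abcb11, Abcc2, Abca8b, Abcc6 (at least 5.24-fold) and Abcg5 (at least 4.18-fold). The last 2 fell short of 4-fold with normexp background correction, quantile normalization, spike-in scaling and the authors' deposited normalized table, and Abcc2 with spike-in scaling. A total of 24 members differed in at least 1 comparison, and 4 of them (Abcb11, Abcc2, Abcc6, Abcg5) in all 3.

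These splits rest on the scaling for bone marrow. Scaled instead to 7 probes for spiked-in control RNA, the median log2 difference over all genes detected on the 3 arrays was -2.04 for fetal liver minus bone marrow and -2.71 for adult liver minus bone marrow, against 0.27 and 0.14 under the 75th percentile. Under that scaling 9 members were higher in adult liver and 19 in bone marrow, against 16 and 6 above. Between fetal liver and bone marrow the split became 2 higher in fetal liver and 17 in bone marrow, against 5 and 1, and quantile normalization gave 3 and 2. Between fetal and adult liver the spike-in split was 9 higher in adult liver and 6 in fetal liver, against 13 and 5, with a median gene shift of 0.56 against 0.02. Differences from bone marrow are therefore relative to the typical gene of each array.

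**Figure D1:**
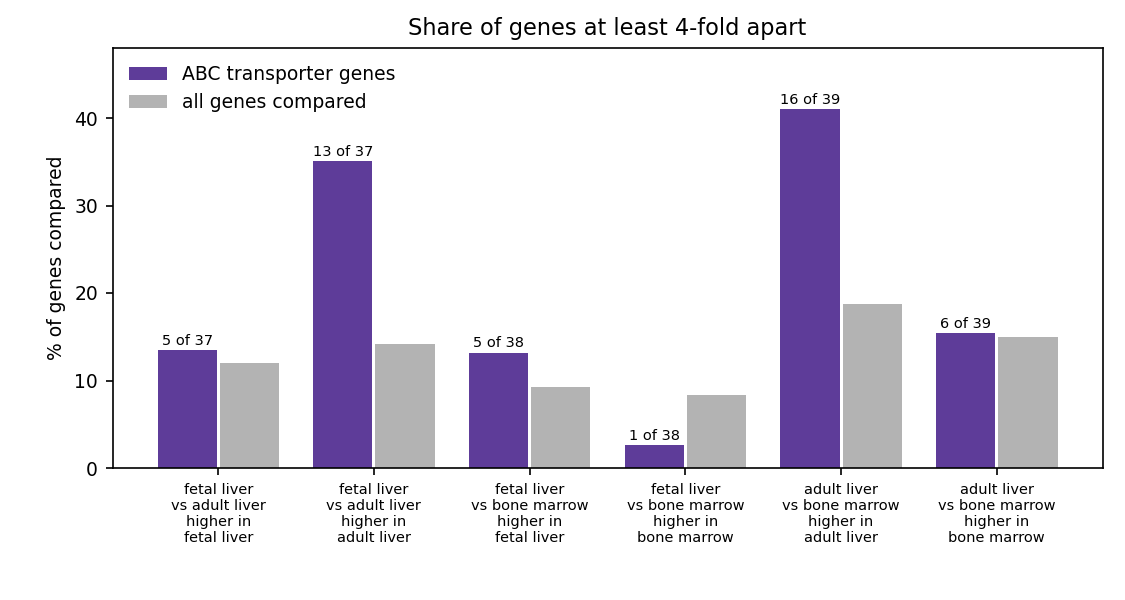
Percentage of comparable genes at least 4-fold apart in each comparison and direction, for ABC transporter genes (purple, with their counts) and for all named genes (grey), after scaling to the 75th percentile. The members exceed all genes most where adult liver is the higher tissue (35.1% against 14.2%, and 41.0% against 18.8%), and with spike-in scaling the split between adult liver and bone marrow turns to 9 against 19.

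By pattern over the 3 tissues, 12 of the 39 detected members (30.8%) exceeded both other tissues at least 4-fold in adult liver, against 10.6% of 15329 detected genes. They were Abca5, Abca6, Abca8a, Abcb1b, Abcb4, Abcb11, Abcc2, Abcc3, Abcc6, Abcd3, Abcg5 and Abcg8. Another 5 (12.8%, against 7.11% of all genes) were at least 4-fold lower in adult liver than in both: Abca7, Abcb10, Abcc1, Abcc5 and Abcg4. A gene could take more than 1 pattern, and 5 members (12.8% against 5.51%) were at least 4-fold lower in bone marrow than in both livers: Abca8b, and, among those already named, Abcb11, Abcc2, Abcc6 and Abcg5. No member was at least 4-fold above both other tissues in fetal liver (1.68% of all genes) or in bone marrow (5.11%), or below both in fetal liver (1.54%). These 3 counts of 0 depend on the processing. With the mean over the probes of a gene, Abcb10 was above both in fetal liver, and Abca13 and Abcc4 were above both in bone marrow. With spike-in scaling 14 members were above both in bone marrow and Abca8a was below both in fetal liver, and with quantile normalization Abcd2 was above both in bone marrow and Abca9 below both in fetal liver.

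**Figure D2:**
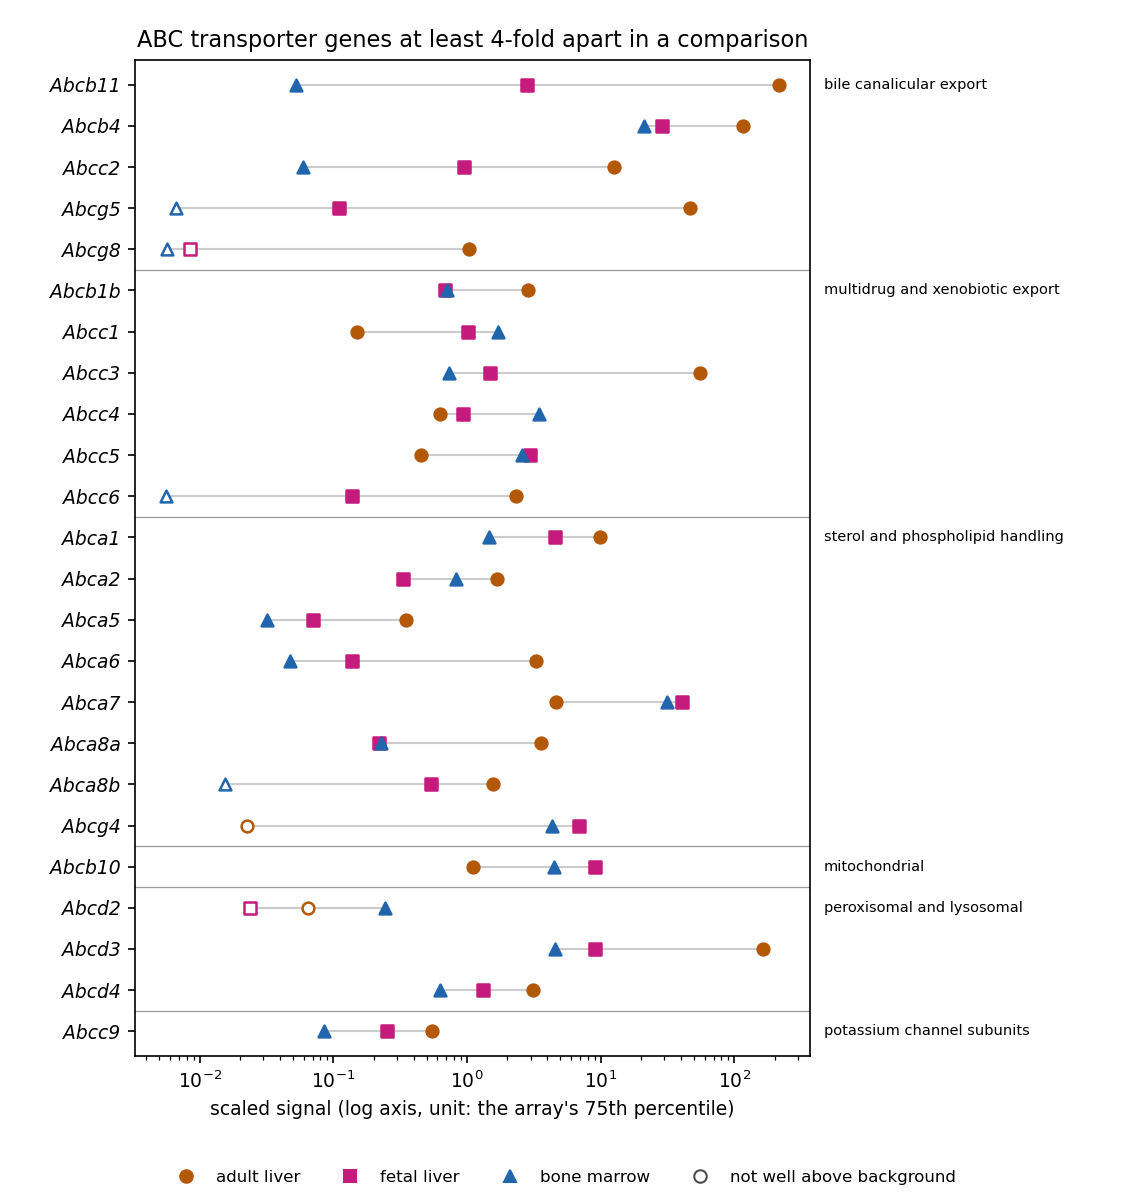
Scaled signal (log axis, in units of the array's 75th percentile) of the 24 ABC transporter genes at least 4-fold apart in at least 1 comparison, grouped by role, with 1 mark per tissue and open marks where the probe was not well above background. Adult liver (circles) is the highest tissue for all 5 bile canaliculus genes, while fetal liver (squares) and bone marrow (triangles) lie above it for Abcc1, Abcc5, Abca7, Abcg4 and Abcb10.

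The canalicular exporters were highest in adult liver. There 5 of 5 were at least 4-fold above both fetal liver and bone marrow, a pattern of 10.6% of all detected genes. The exception was Abcb4, which spike-in scaling turned to -0.38 against bone marrow on the log2 scale. Abcb11, the bile salt export pump, had a scaled signal of 217 in adult and 2.79 in fetal liver, and 0.0527 in bone marrow, where it was still well above background. Adult liver was thus 77.6-fold above fetal liver, and fetal liver 53.0-fold above bone marrow. Abcc2, which exports conjugated bilirubin and glutathione conjugates into bile, gave 12.6, 0.946 and 0.0593. The order of the tissues was the same as for Abcb11, with steps of 13.3-fold and 16-fold. Abcg5 and Abcg8 form the heterodimer that secretes sterols into bile. Abcg5 gave 46.3 in adult liver and 0.111 in fetal liver, a difference of 418-fold, and was not well above background in bone marrow (0.00664). Abcg8 was detected in adult liver alone, at 1.04 against 0.00845 and 0.00569, which makes it at least 26.9-fold and at least 39.4-fold higher there.

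Abcb4, the floppase that supplies phosphatidylcholine to bile, behaved differently from the other 4. It gave 116 in adult and 28.7 in fetal liver, and 21 in bone marrow, so that all 3 tissues had a clear signal. Adult liver was 4.03-fold above fetal liver, just past the threshold, and 5.49-fold above bone marrow, and fetal liver and bone marrow were 1.36-fold apart. A second Abcb4 probe gave 1.81, 0.444 and 0.639, a difference of 4.07-fold between the livers. The call between the livers was lost with normexp background correction, quantile normalization, spike-in scaling and the authors' deposited normalized table, and that against bone marrow with quantile normalization, spike-in scaling and the mean over probes. Hepatocyte markers moved in the same order as these exporters, and their part in the differences was not tested.

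The promoter windows of 3 of these genes are shown because Abcg5 and Abcg8 are transcribed away from each other from a common stretch. Nuclear receptors and GATA factors also have short motifs that can be searched. Abcb10, a mitochondrial transporter that was highest in fetal liver, is added for comparison. The windows run from 250 bases before to 50 bases after the start, on GRCm38.p6. Capitals mark GATAA, bound by GATA factors, on either strand. They also mark the nuclear receptor half-site AGGTCA on either strand, so a capital run can be the reverse complement of these letters. The Abcg5 window is chr17:84682962-84683261 on the minus strand. That of Abcb11 is chr2:69342567-69342866, minus strand, that of Abcc2 chr19:43782058-43782357, plus strand, and that of Abcb10 chr8:123983073-123983372, minus strand.
Abcg5: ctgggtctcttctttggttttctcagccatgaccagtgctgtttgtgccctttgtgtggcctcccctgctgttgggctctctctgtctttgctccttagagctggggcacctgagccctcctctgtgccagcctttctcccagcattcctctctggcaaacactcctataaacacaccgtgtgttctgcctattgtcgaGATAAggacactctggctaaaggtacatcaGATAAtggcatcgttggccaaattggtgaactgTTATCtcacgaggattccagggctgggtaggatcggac
Abcb11: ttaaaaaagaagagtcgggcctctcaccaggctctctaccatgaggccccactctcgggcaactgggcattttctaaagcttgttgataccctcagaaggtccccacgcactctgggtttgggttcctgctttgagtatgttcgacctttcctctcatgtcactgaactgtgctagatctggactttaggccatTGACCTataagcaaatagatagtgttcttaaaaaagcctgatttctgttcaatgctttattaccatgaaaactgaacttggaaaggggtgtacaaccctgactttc
Abcc2: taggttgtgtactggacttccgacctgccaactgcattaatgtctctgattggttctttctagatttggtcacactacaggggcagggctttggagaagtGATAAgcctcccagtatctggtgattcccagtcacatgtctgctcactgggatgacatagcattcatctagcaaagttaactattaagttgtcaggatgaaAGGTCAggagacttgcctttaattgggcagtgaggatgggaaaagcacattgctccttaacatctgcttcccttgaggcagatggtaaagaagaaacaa
Abcb10: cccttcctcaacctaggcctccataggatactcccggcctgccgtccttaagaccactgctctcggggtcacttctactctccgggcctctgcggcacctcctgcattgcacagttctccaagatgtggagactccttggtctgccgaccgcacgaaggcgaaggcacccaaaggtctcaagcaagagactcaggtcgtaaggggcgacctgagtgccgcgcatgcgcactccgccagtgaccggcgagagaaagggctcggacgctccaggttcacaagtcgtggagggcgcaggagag

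The Abcg8 window, chr17:84682871-84683170 on the plus strand, overlapped that of Abcg5 by 209 bases, which read identically on the opposite strand, and the start sites lay 110 bases apart. The 3 GATAA matches printed in the Abcg5 window lay in this shared stretch, so the same letters stood 126, 93 and 63 bases before the Abcg8 start. Abcb11 held 1 AGGTCA match 56 bases before its start. Abcc2 held GATAA 150 and AGGTCA 49 bases before its start. Neither motif was in the Abcb10 window, which says only that these letters are not in that window. The 38 members with a window had 45 windows, of which 11 held GATAA (11 genes) and 7 held AGGTCA (5 genes). Among all 32851 windows, 25.4% held GATAA and 16.3% AGGTCA. The HNF1 half-site GTTAAT was in no member's window and in 7.1% of all windows. These matches describe letters and are not evidence of binding.

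Partners of bile formation, taken as a list of uptake carriers and canalicular scaffold genes, were also mostly higher in adult liver. Between the livers, 9 of 13 (69.2%) were called higher in adult liver, against 14.2% of all genes. Another 2 (15.4%) were higher in fetal liver, against 12.0%. The list's median log2 difference, fetal minus adult, was -3.62 against 0.05 over all genes. The organic anion carrier Slco1b2 gave 217 in adult liver and 0.0687 in fetal liver, 3150-fold apart. Slco2b1 was 502-fold and the bile acid carrier Slc10a1 101-fold higher in adult liver. Ezr, an actin linker of the cell cortex, went the other way, at 0.801 in adult and 13.6 in fetal liver, and 30.0 in bone marrow.

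Of the regulators of transporter genes, 11 of 14 (78.6%) exceeded fetal liver by at least 4-fold in adult liver, against 14.2% of all genes. In fetal liver 1 was higher (7.14% against 12.0%). Against bone marrow 11 of 14 were higher in adult liver (78.6% against 18.8% of all genes), and with spike-in scaling 7 were. Nr1h4, the bile acid receptor, was 38.7-fold higher in adult than in fetal liver. The fatty acid sensor Ppara was 36.0-fold and the xenobiotic sensor Nr1i2 11.4-fold higher there. Gata1, the erythroid transcription factor, was the 1 gene of the list higher in fetal liver, at 8.39 against 0.143 (58.9-fold).

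Multidrug and conjugate exporters split between the tissues. Of 11 genes, Abcb1a, Abcc10 and Abcc12 were not detected on any array. Between the livers, 3 of 7 comparable genes were called higher in adult liver (42.9% against 14.2% of all genes). Another 2 were higher in fetal liver (28.6% against 12.0%). Of the 8 comparable between adult liver and bone marrow, 3 (37.5%) were higher in each tissue (2 and 5 with spike-in scaling). Over all genes 18.8% were higher in adult liver and 15.0% in bone marrow. Abcc3, which returns glucuronides to the blood across the basolateral membrane, gave 55.4 in adult and 1.49 in fetal liver, and 0.739 in bone marrow. Adult liver was 37.3-fold and 74.9-fold above the others, which lay 2.01-fold apart. Abcc6, needed for ATP release from hepatocytes, gave 2.31 and 0.139 in the livers and was not well above background in bone marrow (0.00557). It was 16.6-fold higher in adult than in fetal liver and at least 87.0-fold higher than in bone marrow.

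Abcb1b, one of the mouse genes for P-glycoprotein, gave 2.87 in adult and 0.682 in fetal liver, and 0.706 in bone marrow. Its differences of 4.21-fold and 4.07-fold were close to the threshold, and the probes disagreed. A second probe was 0.0932 in adult liver and 0.328 in bone marrow, with bone marrow the higher by 1.81 on the log2 scale, and the remaining probe was not well above background anywhere. Both calls were lost with normexp background correction, with spike-in scaling and with the mean over probes, and that against bone marrow also with the authors' deposited normalized table and with the percentile taken over detected probes. With spike-in scaling, Abcb1b was lower in adult liver than in bone marrow by 0.82 on the log2 scale.

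Abcc1, which exports leukotriene C4 and glutathione conjugates, was the reverse of the canalicular genes. It gave 0.151 in adult and 1.01 in fetal liver, and 1.71 in bone marrow. Fetal liver was 6.71-fold and bone marrow 11.3-fold above adult liver. The difference between the livers was under 4-fold with normexp background correction. Abcc5, an exporter of cyclic nucleotides, gave 0.456, 2.95 and 2.56, so that fetal liver (6.46-fold) and bone marrow (5.62-fold) were above adult liver and 1.15-fold apart. Abcc4, a further exporter of cyclic nucleotides and bile acids, gave 0.625, 0.935 and 3.45. Bone marrow was 5.51-fold above adult liver and 3.68-fold above fetal liver, the latter just short of the threshold. A second Abcc4 probe was detected in bone marrow alone (0.254), at least 5.78-fold above fetal liver, and the mean over both probes passed 4-fold there. Abcg2, which exports urate, porphyrins and drugs, gave 9.09 in adult and 17.2 in fetal liver, and 15.7 in bone marrow. By this probe it was within 2-fold in all comparisons. A second Abcg2 probe gave 2.37, 4.26 and 5.91, highest in bone marrow, which was 2.49-fold above adult liver. Abcg3 was detected in bone marrow alone, at 0.104.

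Sterol and phospholipid transporters also divided. Of 13 genes 11 were comparable between the livers, and Abca4 and Abca12 were not detected. In adult liver 4 were called higher (36.4% against 14.2% of all genes) and in fetal liver 2 (18.2% against 12.0%). Against bone marrow 5 were higher in adult liver (45.5% against 18.8%) and 2 in bone marrow (18.2% against 15.0%), and with spike-in scaling 2 and 4. Abca1, which loads cholesterol and phospholipid onto apolipoprotein A-I, gave 9.93 in adult and 4.52 in fetal liver, and 1.47 in bone marrow. Its steps of 2.2-fold and 3.09-fold were under the threshold, while adult liver was 6.78-fold above bone marrow, a difference that spike-in scaling turned to -0.08 on the log2 scale. Abca2, a transporter of endosomes and lysosomes, was 5.06-fold higher in adult liver (1.67) than in fetal liver (0.331) and reached 0.829 in bone marrow. That call was lost with normexp background correction and with spike-in scaling. A second Abca2 probe gave 1.11, 0.297 and 0.742, with adult liver 3.75-fold above fetal liver, just short of the threshold.

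Abca7, a phospholipid transporter related to Abca1, was higher in both blood-forming tissues. It gave 4.66 in adult and 40.3 in fetal liver, and 31.1 in bone marrow, differences of 8.65-fold and 6.67-fold from adult liver. A second Abca7 probe was detected in fetal liver alone, at 0.0770, and the mean over both probes fell short of 4-fold against bone marrow. Abcg4, a close relative of the sterol exporter Abcg1, gave 6.87 in fetal liver, 4.34 in bone marrow, and 0.0226 in adult liver, where it was not well above background. It was at least 108-fold and at least 68.0-fold higher than in adult liver, the largest such differences of the members with adult liver as the lower tissue. Abcg1 itself stayed within 4-fold, at 1.39, 1.62 and 3.14. Erythroid, neutrophil and platelet markers were also higher in fetal liver and bone marrow than in adult liver, and their part in these differences was not tested.

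Abca5, Abca6, Abca8a, Abca8b and Abca9 are neighbours on chromosome 11. Adjacent probes lie 33.1 to 135 kb apart on mm9, the build of the array files. Abca6 gave 3.28 in adult and 0.137 in fetal liver, and 0.0478 in bone marrow, so that adult liver was 23.9-fold and 68.7-fold higher. A second Abca6 probe gave 4.36 and 0.232 in the livers and was not detected in bone marrow, at least 8.75-fold below fetal liver. Abca8a gave 3.55, 0.220 and 0.227, with adult liver 16.1-fold and 15.6-fold above the others. Abca8b differed from its neighbour in fetal liver, at 1.56, 0.535 and 0.0154. The livers were 2.91-fold apart, and bone marrow, not well above background, was at least 20.2-fold below fetal liver and at least 58.7-fold below adult liver. Abca5 was dim at 0.348, 0.0708 and 0.0319 (4.91-fold and 10.9-fold), and 4 of its 5 probes were not well above background on any array. Its calls were lost with spike-in scaling, and that between the livers also with normexp background correction and the authors' deposited normalized table. Spike-in scaling also ended the Abca8a call against bone marrow. Abca9 gave 0.139 in adult liver and 0.140 in bone marrow by the probe reported, which was not well above background in fetal liver (0.0344), with bounds of at least 3.59-fold and at least 3.61-fold, just short of the threshold. Another Abca9 probe had the opposite pattern and was detected in fetal liver alone, at 0.0460, and the remaining probes were not detected on any array.

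On chromosome 5, Abcb1a, Abcb1b and Abcb4 lie 113 and 97.6 kb apart by their probes. Abcb1a was not detected, while its neighbours were detected in all 3 tissues. On chromosome 17 the Abcg5 and Abcg8 probes lie 41.1 kb apart, and both genes were highest in adult liver. The Abca17 and Abca3 probes lie 63.8 kb apart on the same chromosome. Abca17 was not detected, and Abca3, the lipid transporter of lung lamellar bodies, gave 6.96 in adult and 5.14 in fetal liver, and 2.58 in bone marrow.

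**Figure D3:**
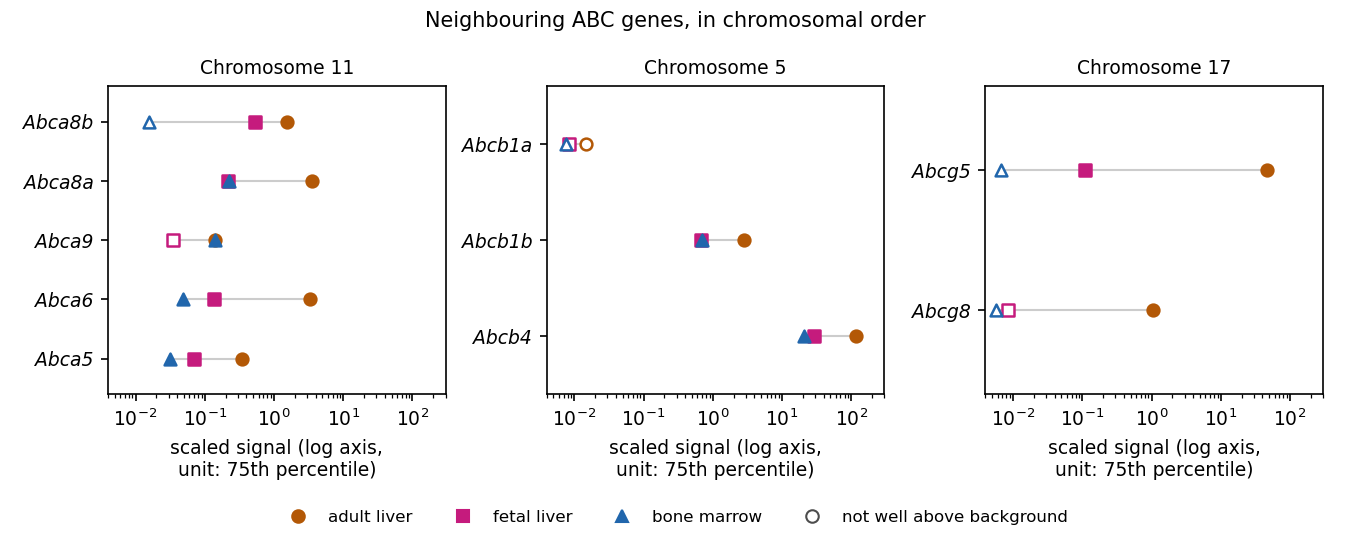
Scaled signal (log axis, in units of the array's 75th percentile) of neighbouring ABC genes on chromosomes 11, 5 and 17, in chromosomal order, with 1 mark per tissue and open marks where the probe was not well above background. Adult liver is the highest tissue for Abca8b, Abca8a, Abca6 and Abca5, whereas Abca9 between them is level in adult liver (0.139) and bone marrow (0.140).

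Lipoprotein and sterol partners were called higher in adult than in fetal liver for 9 of 12 comparable genes, against 14.2% of all genes. None was called higher in fetal liver, against 12.0% of all genes. The list's median log2 difference, fetal minus adult, was -3.24, against 0.05 over all genes. Lcat, which esterifies cholesterol in plasma, was 20.2-fold higher in adult liver. The lipoprotein components Apoa2, Apoa1 and Apoe were 13.8-fold, 9.72-fold and 9.50-fold higher. Against bone marrow 9 of 12 were higher in adult liver (18.8% of all genes), and 6 of 12 with spike-in scaling.

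Of the 4 mitochondrial transporters, Abcb10 alone passed 4-fold (25.0% between the livers, against 26.2% of all genes). This protein of the inner mitochondrial membrane serves heme synthesis in erythroid cells. Its scaled signal was 1.11 in adult and 9.12 in fetal liver, and 4.47 in bone marrow. Fetal liver was 8.21-fold above adult liver, and bone marrow was 4.03-fold above it, at the threshold. A second Abcb10 probe gave 0.439, 9.97 and 0.615. Both probes were highest in fetal liver, but by the second the bone marrow signal was close to that of adult liver and 4.02 below fetal liver on the log2 scale. The call against bone marrow was lost with the mean over probes and with normexp background correction.

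Abcb6 and Abcb8 differed less. Abcb6, linked to porphyrin transport, gave 18.1 in adult and 16.6 in fetal liver, and 4.96 in bone marrow. The livers were 1.09-fold apart, and bone marrow was 3.65-fold below adult liver. Abcb8 gave 2.01, 1.1 and 0.666, at most 3.03-fold apart. Among 13 partners of heme and iron-sulfur synthesis, 3 exceeded adult liver at least 4-fold in fetal liver (23.1% against 12.0% of all genes). None was lower, against 14.2% of all genes. In either direction the share called, 23.1%, was near the 26.2% of all genes. The 3 were the mitochondrial iron carrier Slc25a37 (35.4-fold) and the heme synthesis enzymes Ppox (6.99-fold) and Cpox (4.16-fold). Erythroid markers were higher in fetal liver as well, and their part in the Abcb10 difference was not tested.

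Among the peroxisomal transporters, Abcd3 carried the adult liver difference. It imports branched-chain acids and bile acid intermediates and gave 163 in adult and 9.07 in fetal liver, and 4.59 in bone marrow. Adult liver was 18-fold and 35.6-fold above the others, and its remaining probes also exceeded fetal liver at least 4-fold in adult liver. Abcd2, a peroxisomal fatty acid transporter, was detected in bone marrow alone, at 0.244 against 0.0642 and 0.0238. It was at least 6.29-fold above fetal liver and at least 3.80-fold above adult liver, the first a call and the second just short. The first was lost with normexp background correction and with the authors' deposited normalized table. Abcd2 was the 1 member called higher in bone marrow than in fetal liver by the probes reported. With the mean over probes, Abca13 and Abcc4 were called higher in bone marrow too, and with spike-in scaling 17 members were.

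Peroxisomal partners were mostly higher in adult liver too, with 9 of 12 called against fetal liver (14.2% of all genes). None was called higher in fetal liver (12.0% of all genes). Ehhadh, an enzyme of peroxisomal beta-oxidation, was 56.1-fold, Slc27a2 19.5-fold and catalase (Cat) 16.7-fold higher in adult liver. Against bone marrow 10 of 12 were higher in adult liver (83.3% against 18.8% of all genes), and 3 of 12 with spike-in scaling.

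In lysosomes, Abcd4, which exports cobalamin, gave 3.10 in adult and 1.31 in fetal liver, and 0.631 in bone marrow. Adult liver was 4.92-fold above bone marrow, which spike-in scaling turned to -0.54 on the log2 scale. The lysosomal peptide transporter Abcb9 gave 3.09, 4.11 and 5.72, within 2-fold. Abcc9, a sulfonylurea receptor that pairs with a potassium channel pore, gave 0.547, 0.253 and 0.0845. Adult liver exceeded bone marrow 6.48-fold, and spike-in scaling turned the log2 difference to -0.15. The pore gene Kcnj8 was within 4-fold in all comparisons, and Kcnj11 was not detected.

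None of the 4 soluble ATPases was past 4-fold in any comparison by the probe reported. Abce1, the ribosome recycling factor, gave 5.61 in adult and 15.8 in fetal liver, and 6.72 in bone marrow, with fetal liver 2.82-fold above adult liver. Abcf1, which acts in translation initiation, gave 11.7, 25.3 and 13.5. By these probes both were highest in fetal liver, by 1.87-fold to 2.82-fold. A second Abce1 probe gave 0.161, 0.530 and 0.119, with fetal liver 4.47-fold above bone marrow. A second Abcf1 probe was highest in bone marrow instead, at 0.584, 0.796 and 1.54. Abcf2 gave 2.11, 3.13 and 3.0, and Abcf3 gave 1.46, 0.804 and 1.13, with a second probe at 1.38, 1.49 and 0.473. With spike-in scaling all 4 exceeded adult liver at least 4-fold in bone marrow, Abcf2 and Abcf3 also exceeded fetal liver there, and Abce1 exceeded adult liver in fetal liver. Among the remaining genes, Abca13 was detected in fetal liver (0.0729) and bone marrow (0.218), 2.99-fold apart, and not in adult liver (0.0135), by the probe reported. A second Abca13 probe was detected in bone marrow alone, at 0.908, at least 23.4-fold above fetal liver and at least 14.2-fold above adult liver, and the mean over probes was past 4-fold in both comparisons.

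**Figure D4:**
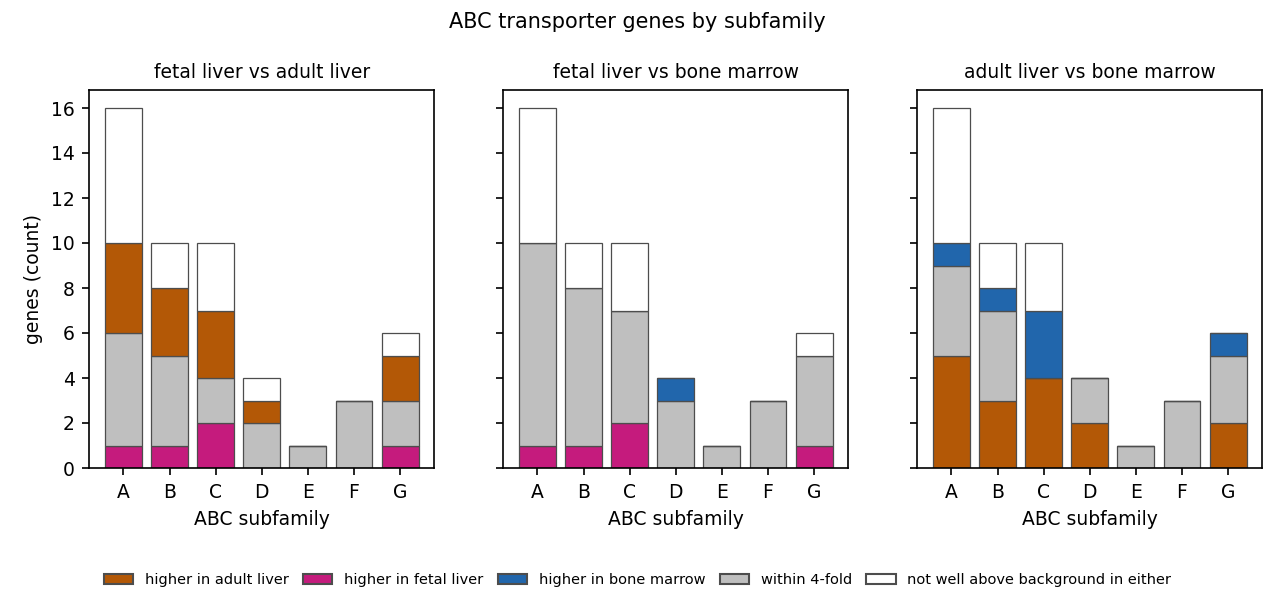
Number of ABC transporter genes per subfamily (A to G) in each comparison, split into those at least 4-fold higher in 1 tissue, those within 4-fold or below a bound, and those not well above background in either tissue. Calls occurred in subfamilies A, B, C, D and G, and none of the 4 genes of E and F was called by the probe and scaling plotted. Spike-in scaling calls all 4 higher in bone marrow than in adult liver, Abcf2 and Abcf3 higher in bone marrow than in fetal liver, and Abce1 higher in fetal than in adult liver.

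By subfamily, C had the highest proportion of called genes between adult liver and bone marrow, 7 of 7 comparable genes, 4 of them higher in adult liver and 3 in bone marrow. Subfamily A had 6 of 10, B 4 of 8, D 2 of 4 and G 3 of 6. Between the livers, subfamily A had 5 of 10 called (4 higher in adult liver), B 4 of 8 (3 higher in adult liver), C 5 of 7 (3), D 1 of 3 (1) and G 3 of 5 (2). Over all genes, 33.8% were called between adult liver and bone marrow and 26.2% between the livers. The subfamilies are small, and their proportions are given as counts.

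ABC proteins whose symbols do not begin with Abc were compared with the members. Tap1 and Tap2 form the peptide pump that loads class I histocompatibility molecules. Tap1 gave 0.459 in adult liver and 1.68 in bone marrow and was not well above background in fetal liver (0.0424). Tap2 gave 0.949, 0.157 and 1.72, so that fetal liver was 6.04-fold below adult liver and 11-fold below bone marrow. Both were lowest in fetal liver, a pattern of at least 4-fold that no member showed under the same scaling, although neither stayed past 4-fold between the livers with normexp background correction. Of 8 genes of peptide loading, 4 were at least 4-fold lower in fetal than in adult liver, against 14.2% of all genes. At the same threshold 3 were lower in fetal liver than in bone marrow, against 8.32% of all genes. H2-K1 was 20.6-fold, H2-D1 18.3-fold and B2m 16.6-fold lower in fetal than in adult liver. The chloride channel Cftr was not detected.

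**Figure D5:**
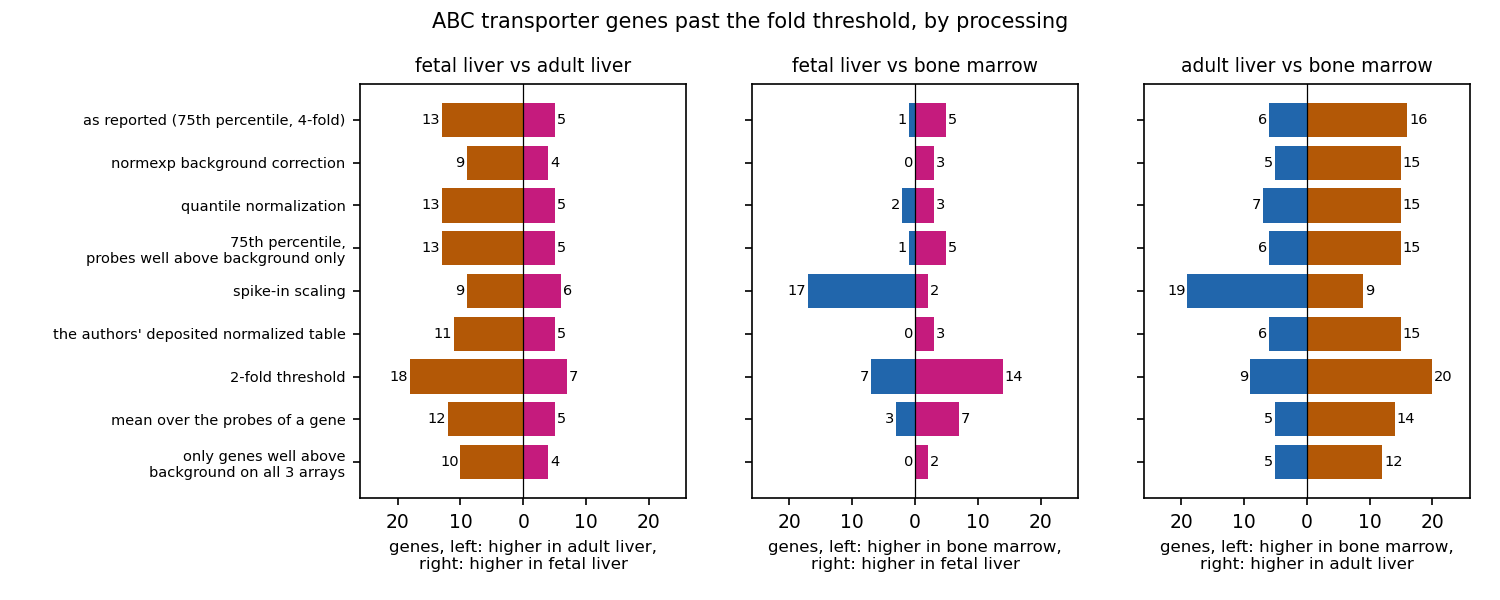
Number of ABC transporter genes past the fold threshold in each comparison under each processing setting, with bars to the left and right for the 2 directions and counts at their ends. Between the livers adult liver is the more frequent higher tissue under all settings plotted, while with spike-in scaling bone marrow becomes the more frequent higher tissue against fetal liver (17 to 2) and adult liver (19 to 9).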

How the data were processed

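Each tissue was 1 array. The scanner images were processed by Agilent Feature Extraction 10.5.1.1, per the submitters' processing notes. Per the file headers, the deposited processed signal intensity has local background removed and no normalization across arrays. The authors also deposited a normalized ratio table, whose raw column equals the error of the processed signal, and which was used only as an alternative. Positions are those of the files, on mm9.

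Log2 processed signals minus the array's 75th percentile were computed with numpy 2.4.6 and pandas 2.3.3 under Python 3.11.15, and normexp and quantile alternatives in R 4.3.3 with limma 3.58.1. Control spots and spots flagged as outliers (75, 71 and 80 in adult liver, fetal liver and bone marrow) were left out, and no gene spot was saturated. A gene was represented by the probe well above background on most arrays, ties going to the brightest. Of the members, 18 have 1 probe and 32 several. A bound takes the dim probe at its own value or, if that is lower, at the array's lowest scaled value well above background (0.0639, 0.0388 and 0.0265). The number of arrays limits the precision.

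The members, roles, partner lists and markers were chosen with earlier results of these data known. Every member could be named, with values for those at least 4-fold apart, and partners by size of measured fold, at most 4 a list. The calling rule was tested on simulated data. Alternatives were the background correction, scaling, threshold, probe rule and detection filter. Values of some genes counted in the groups are not reported here.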

Additional observations from a re-analysis of the deposited data

How the results depend on the processing

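No paired analysis was possible because each tissue has 1 array, and for the same reason no replicate could be left out. No called gene was called the other way under any alternative. Counts between the livers stayed within 1.5 times the reported 18 (13 to 25). For fetal liver against bone marrow, reported as 6 (5 higher in fetal liver, 1 in bone marrow), the counts were 3 (3 and 0) with normexp background correction, 3 (3 and 0) with the authors' deposited normalized table, 5 (3 and 2) with quantile normalization, 19 (2 and 17) with spike-in scaling, 21 (14 and 7) at 2-fold, 10 (7 and 3) with the mean over probes, and 2 (2 and 0) over genes well above background on all 3 arrays, where fewer genes enter. For adult liver against bone marrow, spike-in scaling gave 9 higher in adult liver and 19 in bone marrow, against 16 and 6. It also reversed 5 log2 differences, adult liver minus bone marrow: Abca1 (-0.08), Abcb1b (-0.82), Abcb4 (-0.38), Abcc9 (-0.15) and Abcd4 (-0.54). The cause of these changes was not tested. Signal over background limits the 11 genes dim on all arrays and every fold written as a bound.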

Other observations

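Probes of the same gene differed in brightness and in detection. Of the 98 member probes, 23 span more than 60 bases on mm9, and 10 of these were detected on 1 or more arrays, against 57 of the 75 that span at most 60 bases. Among called members with several probes, all probes were called the same way for 6 of 12 when the livers were compared, for 0 of 2 when fetal liver was set against bone marrow, and for 5 of 14 when adult liver was, and no probe was called the opposite way. Abcc6 rests on 1 probe that spans 2249 bases (chr7:53232790-53235038). Abcb11 rests on 1 probe at chr2:69076390-69076449, and Abcg4 on 1 at chr9:44081397-44081456.

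The Abcc5 probes gave 6.46-fold for the one reported and at least 3.0-fold and at least 3.80-fold for the others, with fetal liver above adult liver in each. For Abcc1, the probe reported gave 6.71-fold, and the others 2.48-fold and at least 5.02-fold, also higher in fetal liver. The second Abcc3 probe was detected in adult liver alone, at 0.348, at least 8.98-fold above fetal liver. Between fetal liver and bone marrow the reported Abcc5 probe was higher in fetal liver by 0.20 on the log2 scale, and the others gave -1.03 and -0.71. For Abcg2 and Abcb4, too, the second probe had the opposite sign there (-0.47 and -0.52, against 0.14 and 0.45), all under 4-fold.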
